A study of Mus musculus with 16 samples.

Results

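The promoters of the mouse zinc finger genes named Zfp were examined in pancreatic islets. The set held the 383 protein-coding GENCODE genes on chromosomes 1 to 19 whose symbol is Zfp followed by a number, with a pair of such genes left out, of 20807 protein-coding genes on these chromosomes. Peaks of the 16 sample lists that overlapped were merged into 362076 regions, and a region belonged to a gene if it came within 1 kb of one of its transcription start sites (TSS). The Zfp genes had 475 such regions, of which 322 had a peak in all 16 samples. The data were ATAC-seq peak lists, in which a transposase cuts accessible chromatin and so leaves more reads there. Islets gave 1 female and 1 male sample for each of 8 inbred strains, the founders of the Diversity Outbred mice, and carried no treatment. How many mice gave islets to a sample was not stated in the sources used here. The strains were 129S1_SvImJ (129), A_J (AJ), C57BL/6J (B6), NOD_ShiLtJ (NOD), NZO_HlLtJ (NZO), CAST_EiJ (CAST), PWK_PhJ (PWK) and WSB_EiJ (WSB). The study text calls CAST, PWK and WSB wild-derived and the other 5 classical. Ages were not given in the sources used here. The female and the male are the only replicates of a strain, so a p-value for strain measures differences against the spread between sexes within strains. Whole islets were used, so a change in the share of a cell type cannot be told apart from a change within cells.

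Most Zfp proteins carry tandem C2H2 zinc fingers, each of which reads a few bases of DNA. Many also hold a KRAB domain, which recruits the corepressor Trim28 and, through it, the histone methyltransferase Setdb1, so that H3K9 trimethylation silences the bound site, often a retroelement. KRAB zinc finger genes arose by repeated tandem duplication, and they lie in clusters of similar copies that differ between mouse strains. A smaller number of Zfp genes encode factors of other families, such as CCCH proteins that bind mRNA, or C2H2 factors of development without KRAB.

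The 8 promoters below carry the 4 strongest strain effects (Zfp970, Zfp937, Zfp456 and Zfp984) or belong to a group of related promoters on chromosome 2. In that group some genes had strong peaks and others had none. Each runs 5′ to 3′ on the strand of its gene, from 250 bases before to 50 bases after the RefSeq start, on GRCm38.p6. Their positions are chr2:177464492-177464791 (Zfp970, plus strand), chr2:150217849-150218148 (Zfp937, plus), chr13:67375714-67376013 (Zfp456, minus) and chr4:147809739-147810038 (Zfp984, minus). The others are chr2:177925601-177925900 (Zfp972, minus), chr2:178023034-178023333 (Zfp971, plus), chr2:178078376-178078675 (Zfp931, minus) and chr2:175372186-175372485 (Zfp968, plus). Capitals mark the CCAAT box on either strand and, in Zfp984, GGGCGGG, the letters bound by SP factors, which there overlaps a CCAAT box.
Zfp970: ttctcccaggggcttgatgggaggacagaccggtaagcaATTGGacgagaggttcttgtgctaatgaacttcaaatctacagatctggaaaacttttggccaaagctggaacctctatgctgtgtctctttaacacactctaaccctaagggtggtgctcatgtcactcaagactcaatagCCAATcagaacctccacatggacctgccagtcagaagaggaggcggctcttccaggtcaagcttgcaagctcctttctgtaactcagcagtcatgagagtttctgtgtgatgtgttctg
Zfp937: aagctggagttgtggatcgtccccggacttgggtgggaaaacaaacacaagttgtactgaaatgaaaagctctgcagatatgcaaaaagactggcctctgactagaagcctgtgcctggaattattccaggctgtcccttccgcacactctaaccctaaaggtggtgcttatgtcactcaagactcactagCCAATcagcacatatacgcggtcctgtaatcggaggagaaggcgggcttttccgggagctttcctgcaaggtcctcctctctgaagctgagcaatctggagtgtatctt
Zfp456: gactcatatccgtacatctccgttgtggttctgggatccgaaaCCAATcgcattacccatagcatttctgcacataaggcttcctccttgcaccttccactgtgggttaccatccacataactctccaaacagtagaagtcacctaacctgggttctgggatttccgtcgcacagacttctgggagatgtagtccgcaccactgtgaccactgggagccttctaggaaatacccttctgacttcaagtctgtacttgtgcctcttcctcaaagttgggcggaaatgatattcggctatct
Zfp984: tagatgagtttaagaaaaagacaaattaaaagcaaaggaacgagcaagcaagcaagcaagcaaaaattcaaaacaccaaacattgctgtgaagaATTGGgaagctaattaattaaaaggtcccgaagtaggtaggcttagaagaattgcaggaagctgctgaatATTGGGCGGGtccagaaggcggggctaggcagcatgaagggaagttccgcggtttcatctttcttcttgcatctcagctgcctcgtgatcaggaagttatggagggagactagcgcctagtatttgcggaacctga
Zfp972: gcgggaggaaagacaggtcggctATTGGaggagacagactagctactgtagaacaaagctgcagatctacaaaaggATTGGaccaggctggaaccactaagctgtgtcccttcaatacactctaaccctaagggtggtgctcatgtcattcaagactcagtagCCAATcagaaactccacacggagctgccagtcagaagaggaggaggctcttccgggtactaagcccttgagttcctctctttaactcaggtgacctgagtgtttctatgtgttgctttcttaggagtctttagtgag
Zfp971: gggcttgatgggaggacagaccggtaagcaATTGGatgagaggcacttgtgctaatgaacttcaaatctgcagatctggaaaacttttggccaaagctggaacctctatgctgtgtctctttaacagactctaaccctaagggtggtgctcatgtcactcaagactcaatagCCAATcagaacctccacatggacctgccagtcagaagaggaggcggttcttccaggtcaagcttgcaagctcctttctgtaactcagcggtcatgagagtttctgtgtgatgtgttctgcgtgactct
Zfp931: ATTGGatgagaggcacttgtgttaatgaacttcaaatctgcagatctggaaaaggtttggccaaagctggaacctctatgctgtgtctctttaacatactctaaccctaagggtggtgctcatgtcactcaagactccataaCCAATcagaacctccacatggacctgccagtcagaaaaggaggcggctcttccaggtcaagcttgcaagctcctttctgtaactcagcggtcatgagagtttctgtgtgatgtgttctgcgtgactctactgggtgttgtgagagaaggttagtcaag
Zfp968: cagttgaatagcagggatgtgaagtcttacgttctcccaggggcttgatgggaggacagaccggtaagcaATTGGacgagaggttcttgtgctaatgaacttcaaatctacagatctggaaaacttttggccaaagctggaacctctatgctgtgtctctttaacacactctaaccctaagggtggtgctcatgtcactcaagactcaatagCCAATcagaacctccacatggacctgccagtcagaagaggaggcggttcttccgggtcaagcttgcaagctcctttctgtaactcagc

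The chromosome 2 promoters of Zfp970, Zfp971, Zfp931 and Zfp968 are close to identical over long stretches, and those of Zfp972 and Zfp937 are less alike. Zfp970 shares 284 of 300 aligned bases with Zfp971, 249 with Zfp931, 229 with Zfp972 and 267 with Zfp968. It shares 198 with Zfp937, and 155 and 160 with Zfp456 and Zfp984 of other chromosomes. Zfp970 also shares 293 bases with Zfp966 and with Zfp967, whose promoters are identical to each other over 300 bases. Every 31-base word of the Zfp970, Zfp931 and Zfp968 promoters occurs more than once in the reference chromosomes. A 31-base word from such a stretch cannot be placed by its sequence alone. The study's reads were paired and longer than these words, so a read that spans a base differing between copies can be placed. No filter on mapping quality was stated by the study, so signal at these genes may be shared among copies, to an extent that was not tested.

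The sample lists held 80392 peaks (AJ male) to 173735 peaks (WSB female). The signal of a sample in a region was its highest summit, and it was divided by the median of that sample over the 42427 regions called in all 16 samples, which gives the scaled signal used below (0 where no peak was listed). The PWK male had the lowest such median, 32, and the CAST male the highest, 136. The read depth of single samples is not in the lists and is unknown here. Promoter regions of 8 of 8 beta cell markers (among them Ins1, Ins2 and Pdx1) and 4 of 4 pan-endocrine markers were called in all 16 samples. Of 4 alpha cell markers 3 were. Of 2 delta cell markers 1 was, and Sst had a peak in 1 sample. Of the endothelial markers 0 of 3 were, of the leukocyte markers 0 of 4, and of the acinar and duct markers 1 of 4 (Bhlha15) and 1 of 3 (Cftr).

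Zfp promoters were mostly accessible in islets of every strain. A promoter region was called in all 16 samples for 308 of 383 Zfp genes (80.4%), in 1 to 15 samples for 57, and in no sample for 18 (4.7%). Over all protein-coding genes of these chromosomes the share called in all 16 was 53.2%, and over the 20424 genes outside the set 4329 (21.2%) had no peak in any sample. Among the 235 other genes with at least 3 C2H2 fingers, 162 (68.9%) were called in all 16 samples and 26 (11.1%) in none. These shares are given as a description, without a test.

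**Figure D1:**
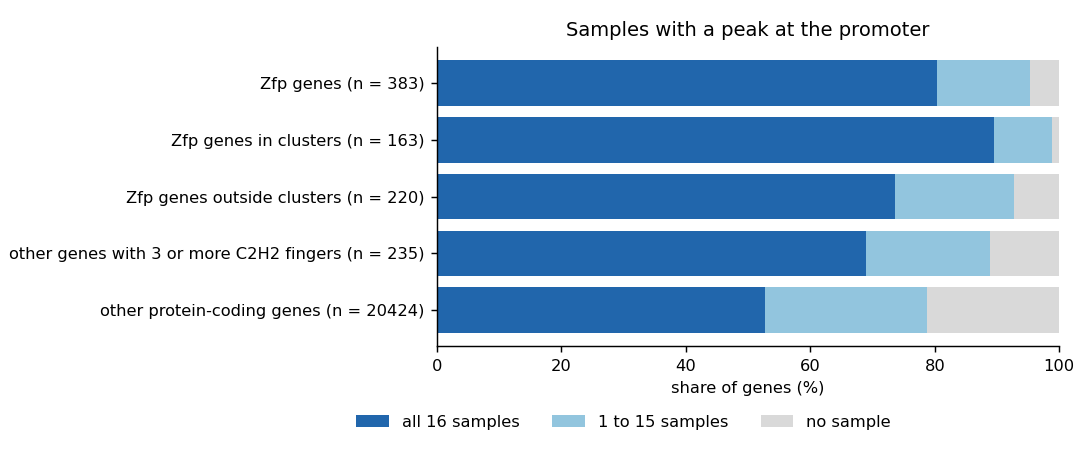
Share of genes (%, horizontal axis) with a promoter peak in all 16 samples, in 1 to 15 or in none, for the Zfp genes, those inside and outside gene clusters, and other protein-coding genes. The dark bar reaches 80.4% for the 383 Zfp genes and 52.7% for the 20424 genes outside the set.

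The Zfp genes differed among themselves. A cluster was a run of at least 4 Zfp genes with neighbouring gene starts under 200 kb apart, and 163 genes lay in 20 clusters. Of these 146 (89.6%) were called in all 16 samples, against 162 of 220 (73.6%) outside clusters. A stretch of the KRAB A box was found by a strict pattern in the proteins of 166 genes, and 140 of these (84.3%) were called in all 16 samples, against 168 of 217 (77.4%) without it. The pattern misses some KRAB boxes, since Zfp57, Zfp708 and Zfp932, which are known KRAB factors, did not match it. None of the 12 genes of the chromosome 7 cluster from Zfp180 to Zfp575 matched either, and 11 of them were called in all 16 samples. How many of those 12 hold a KRAB box was not examined. The genes without a match are therefore a mixed group. Per sample, from 316 Zfp genes (AJ male) to 360 (CAST male and WSB female) had a peak at the promoter. The AJ male also had the shortest list, and without the AJ samples 323 Zfp genes were called in every remaining sample.

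Of the 18 Zfp genes without a peak, 6 lay side by side on chromosome 2 (Zfp968, Zfp965, Zfp969, Zfp966, Zfp967 and Zfp973). The 1298 kb from the start of Zfp968 to that of Zfp973 held 520 peaks over the 16 lists, none of them within 1 kb of these TSS. The promoters of the 5 of these genes that have a RefSeq start consist of repeated 31-base words throughout (100% in each), and they resemble the Zfp970 promoter printed above. The 12 further genes were Zfp831, Zfp352, Zfp683, Zfp853, Zfp977, Zfp869, Zfp781, Zfp735, Zfp616, Zfp385c, Zfp366 and Zfp474. Zfp352 is known from the early embryo, Zfp683 (Hobit) from resident lymphocytes and Zfp366 from dendritic cells.

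Some regions were present or absent by strain. Of 153 Zfp regions listed in 1 to 15 samples, 52 were listed in 1 sample, and 19 (12.4%) were listed in both or neither sample of every strain. Over all regions listed in 1 to 15 samples the latter share was 8.51%, and at promoters of other protein-coding genes it was 10.6%. Those with the highest signal among the 19 lay at Zfp771, Zfp423 and Zfp217, and all 3 were missing from AJ alone. Zfp423, a regulator of fat cell commitment, had a scaled signal of 0.793 and 0.696 in the 129 female and male, 0.548 and 0.361 in B6, 0.302 and 0.512 in NOD and 0.3704 and 0.927 in NZO. It was 0.714 and 0.669 in CAST, 0.694 and 0.625 in PWK and 0.519 and 0.705 in WSB, and no peak was listed in AJ. Zfp217 had 0.265 in the B6 male to 1.03 in the 129 female outside AJ, and Zfp771 had 0.512 in the NOD female to 1.86 in the NZO male. Zfp11 was missing from AJ and NOD and had a mean of 0.437 over the strains that held it. A second region of Zfp984 was missing from B6 alone, and second regions of Zfp775 and Zfp936 were listed only in CAST (means 0.372 and 0.241). The remaining regions of the 12 that the rule named were second regions of Zfp111 (129 and NOD), Zfp536 (all but NZO), Zfp106 (B6, NZO, CAST and WSB) and Zfp982 (PWK), and the region of Zfp980 (all but AJ), with means of 0.221 to 0.379. Of 43 leading regions listed in 8 to 15 samples, the AJ male lacked a peak in 36 (83.7%) and the AJ female in 23 (53.5%), whereas the CAST male and the WSB female lacked 0. At other protein-coding genes the AJ male lacked 76.0% and the AJ female 43.5% of such regions, and the AJ samples also had few peaks at promoters of other genes. Leading region means the region of a gene listed in most samples, with ties broken by signal.

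Signal spanned a wide range. Over the leading regions called in all 16 samples the median scaled signal was 2.8 at Zfp genes and 2.17 at other protein-coding genes. The strongest were Zfp960 (20.4 ± 5.58, mean ± SD of 16 samples), Zfp654 (20.2 ± 4.50, at a promoter shared with Cggbp1), Zfp277 (18.3 ± 4.59, shared with Dock4), Zfp317 (18.2 ± 4.73) and Zfp958 (16.8 ± 3.83). The weakest were Zfp97 (0.240 ± 0.0913), Zfp992 (0.329 ± 0.166), Zfp296 (0.346 ± 0.113, shared with Gemin7), Zfp982 (0.353 ± 0.189) and Zfp978 (0.366 ± 0.184). Zfp960 (17063060 to 17064969) and Zfp97 (17121679 to 17122199) lie near each other on chromosome 17 and had the highest and the lowest mean of the leading regions called in all 16 samples. The RefSeq promoter of Zfp97 (17121133 to 17121432) lies outside its region and consists of repeated 31-base words to 100%. At the summits of Zfp978, Zfp992, Zfp982 and Zfp296 the repeated share was 100%, 66.4%, 11.8% and 0%. The part of read placement in these low values was not tested. The median position of the summit was -34.5 bases from the nearest TSS, minus meaning upstream, with quartiles at -76.5 and 2.38 bases. A leading region was shared with another protein-coding gene for 31 of 308 Zfp genes (10.1%) and for 2314 of 10759 others (21.5%).

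RefSeq starts were matched for 317 of 383 Zfp genes, which have 383 promoters, and 18791 promoters of other protein-coding genes gave the background. The CCAAT box was present on either strand in 179 Zfp promoters (46.7%) and in 37.3% of the others. The ETS site CCGGAAGT was present in 38 (9.92%) and in 5.36% of the others. ACTACAATT, the core bound by Zfp143, was present in 11 (2.87%) and in 0.506% of the others, GGGCGGG in 116 (30.3%) against 35.5%, and TATAAA in 26 (6.79%) against 12.3%. The remaining letters searched gave 15 promoters each for TGACGTCA and GCGCATGCG (3.92%, against 2.33% and 2.44%), 10 for AAGATGGCG (2.61% against 1.89%), 24 for CACGTG (6.27% against 8.08%) and 7 for TCTCGCGA (1.83% against 1.39%). Genes called in all 16 samples held 317 of the 383 Zfp promoters and 10824 of the 18791 others. Among these promoters TATAAA was in 7.89% of the Zfp set and 7.17% of the others, and GCGCATGCG in 3.47% and 3.465%. GGGCGGG was in 29.0% and 46.3%, CCAAT in 47.6% and 38.8%, CCGGAAGT in 10.7% and 7.60%, and ACTACAATT in 3.16% and 0.684%. Near copies share letters, so Zfp promoters are not independent of each other here. Median GC content was 54.7% at Zfp promoters and 57.3% at the others, and both had a median of 14 CpG in 300 bases. Among promoters of genes called in all 16 samples, median GC content was 54.3% at Zfp genes and 60.7% at others, with 14 and 20 CpG. The 15 promoters of Zfp genes without a peak had a median of 5, and promoters of other genes without a peak one of 3.

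Whether the signal differed among strains was tested with limma on log2(signal + 1), centred on each sample's median over shared regions, with strain and sex in the model. A strain effect was called at 67 of 322 Zfp promoter regions (20.8%, limma adjusted p under 0.05), and at 111 the p before adjustment was under 0.05. Over all 42427 regions tested 34.9% were called, and over the 10506 promoter regions of other protein-coding genes 2330 (22.2%) were, so the Zfp share lay below the one and near the other. Between the strains with the highest and lowest mean, the called regions differed by 1.78-fold to 14.5-fold, with a median of 2.95-fold, and 30 by over 3-fold. The 255 regions not called had a median of 1.66-fold. NOD had the highest mean at 20 of the 67 regions and AJ at 14, whereas AJ and CAST had the lowest mean at 16 each and WSB at 14. The same count was not made over other regions, so it does not show a trait particular to Zfp promoters. At 26 regions both samples of the highest strain exceeded the other 14 samples, at 38 both samples of the lowest strain lay under them, and at 10 both held. These are 38.8%, 56.7% and 14.9% of the 67, and over all regions with a strain effect the shares were 34.4%, 45.5% and 13.6%. At promoter regions of other protein-coding genes with a strain effect they were 30.3%, 50.9% and 14.5%. All these regions were called for a strain effect, so the shares are a description. The count of 67 depended on the libraries, since it was 148 without the NZO female, 100 without the NZO male, 34 without either CAST sample, 40 and 43 without the NOD female and male, and 42 and 43 without the WSB female and male.

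**Figure D2:**
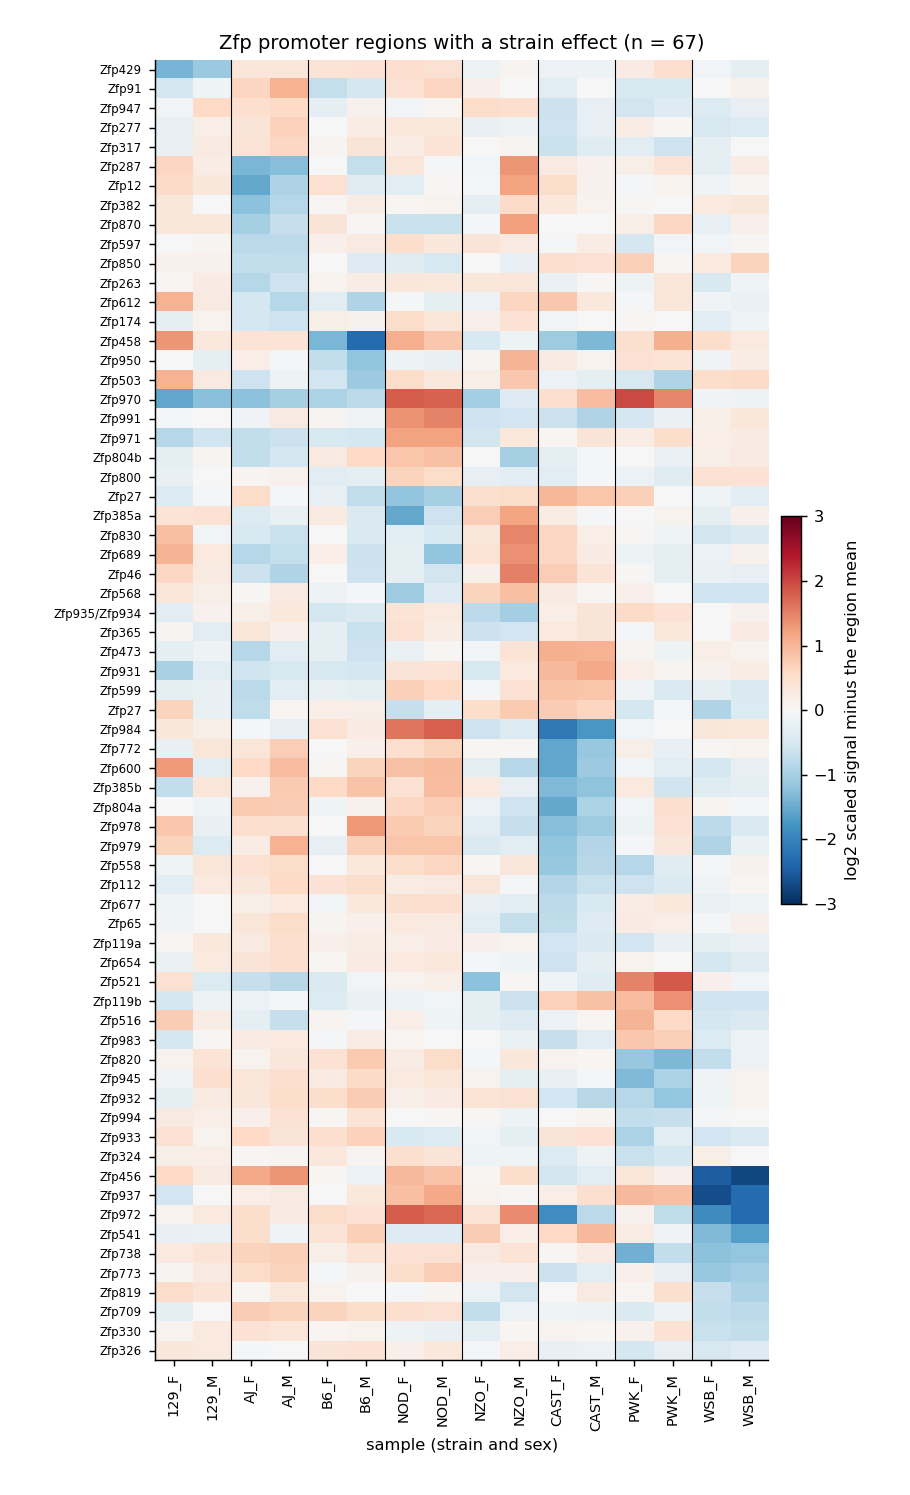
Log2 scaled signal minus the mean of the region (colour) in the 16 samples (columns, by strain and sex) at the 67 Zfp promoter regions with a strain effect (rows, by gene). Rows are grouped by the strain farthest from the mean, and female and male of a strain mostly share a colour, with the lowest values at Zfp456, Zfp937 and Zfp972 in WSB.

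The strongest call of the set was Zfp970 on chromosome 2 (177452228 to 177469799, limma adjusted p = 1.44e-05), a gene whose protein holds 14 fingers by pattern. The scaled signal at Zfp970 was 2.0 and 2.46 in the 129 female and male, 2.48 and 2.93 in AJ, 3.04 and 3.41 in B6 and 2.9 and 4.46 in NZO. It was 20.5 and 20.0 in NOD, 8.36 and 11.1 in CAST, 23.0 and 16.2 in PWK and 5.41 and 5.27 in WSB. NOD and PWK did not overlap any other strain and did overlap each other. NOD was higher than the mean of the other 7 strains by 2.04 ± 0.20 (log2 fold change ± SE, limma adjusted p = 0.00024) and PWK by 1.95 ± 0.20 (adjusted p = 7.02e-05). With the deposited mean signal of a peak in place of its summit signal these contrasts were not called (adjusted p = 0.0779 for NOD and 0.064 for PWK), while the strain effect was. The region is 17572 bases wide, and 100% of the 31-base words around its summit are repeated in the reference.

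Its neighbours on chromosome 2 shared the high signal of NOD. Zfp972 (177924200 to 177927041) had 2.43 and 2.77 in the 129 female and male, 3.26 and 2.73 in AJ, 3.32 and 3.1 in B6, 7.96 and 7.52 in NOD and 3.02 and 6.09 in NZO. Its values were 0.629 and 1.29 in CAST, 2.47 and 1.34 in PWK and 0.613 and 0.455 in WSB, so that NOD stood above all samples and WSB below all, 14.5-fold apart in their means. The limma adjusted p for strain was 0.000329, and WSB was lower than the other 7 by a log2 fold change of -2.38 ± 0.30 (adjusted p = 0.00058). The NOD contrast at Zfp972, 2.01 ± 0.30 (adjusted p = 0.00374), was lost without either NOD sample and with the mean signal (adjusted p up to 0.167). Zfp971 (178022305 to 178024660, adjusted p = 0.00122) had 11.52 and 11.54 in the NOD female and male, 2.74 (129 female) to 7.12 (PWK male) elsewhere, and a NOD contrast of 1.39 ± 0.19 (adjusted p = 0.00242). Zfp931 (178073233 to 178080977, adjusted p = 0.00399) instead was highest in CAST, with 10.6 and 11.9, against 2.78 (129 female) to 7.24 (NOD male) in the others. Its CAST contrast was 1.20 ± 0.20 (adjusted p = 0.000993, and 0.0614 with the mean signal). The summits of these regions lie in repeated words to 88.6%, 73.4% and 100%.

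Zfp937, at a distance on the same chromosome (150217420 to 150220472), was high in NOD and PWK, as Zfp970 was, and low in WSB. Its scaled signal was 5.69 and 8.45 in the 129 female and male, 9.72 and 10.2 in AJ, 8.46 and 10.5 in B6, 15.8 and 18.7 in NOD and 9.04 and 8.67 in NZO. In CAST it was 9.76 and 12.0, in PWK 16.5 and 15.8, and in WSB 1.35 and 1.72. The strain effect had an adjusted p of 1.49e-05, and WSB lay under every other sample with a log2 fold change of -2.81 ± 0.18 (adjusted p = 4.82e-06). NOD was higher by 1.17 ± 0.18 (adjusted p = 0.00423) and PWK by 1.05 ± 0.18 (adjusted p = 0.00214), and 59.8% of the words at the summit are repeated.

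The chromosome 13 cluster from Zfp712 to Zfp273 held 23 Zfp genes, all of them called in all 16 samples, and 3 of the 23 leading regions had a strain effect. For comparison, 22.2% of other promoter regions and 34.9% of all regions had one. At Zfp456 (67375151 to 67376516) the signal was 5.78 and 4.59 in the 129 female and male, 8.28 and 9.46 in AJ, 3.96 and 3.36 in B6, 7.48 and 6.88 in NOD and 3.93 and 5.47 in NZO. The wild-derived strains had 2.58 and 2.98 (CAST), 4.87 and 4.19 (PWK) and 0.679 and 0.568 (WSB). WSB was lower than the other 7 by a log2 fold change of -2.96 ± 0.19 (adjusted p = 4.82e-06), the largest of the one-strain calls, and AJ higher by 1.39 ± 0.19 (adjusted p = 0.0032). Here 19.9% of the words at the summit are repeated. Zfp429 (67398999 to 67400471) was low in 129 alone, with 1.55 and 1.88 against 3.4 (WSB male) to 5.85 (NOD female) in the other samples. Its 129 contrast was -1.44 ± 0.17 (adjusted p = 0.00174, and 0.0947 without the 129 female). Zfp738 (67682625 to 67684504) was low in PWK (1.82 and 2.97) and WSB (2.12 and 2.22), while the other samples had 5.15 (CAST female) to 8.16 (AJ male), with an adjusted p for strain of 0.000334.

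At Zfp458 in the same cluster the leading region did not pass the test (adjusted p = 0.223) and a second region, at another TSS (67278319 to 67279063), did (adjusted p = 0.000445). The second region had 0.464 and 0.241 in the B6 female and male and 0.571 and 0.471 in CAST, against 0.876 (NZO female) to 3.0 (129 female) in the others. The B6 contrast was -2.06 ± 0.26 (adjusted p = 0.0018, and 0.099 without the B6 male). B6 is the strain of the reference to which the reads were aligned, and 0.738% of the words at this summit are repeated.

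The chromosome 4 cluster from Zfp989 to Zfp933 held 10 genes with weak signal, with a median of 0.403. Of the 10, 7 were called in all 16 samples and 5 of the 7 had a strain effect, where 34.9% of all regions and 22.2% of other promoter regions had one. The difference of this cluster from the others was not tested. Zfp984 (147807875 to 147815959) had 4.16 and 4.74 in the NOD female and male and 0.305 and 0.404 in CAST. The other strains had 1.72 and 1.52 (129), 1.32 and 1.15 (AJ), 1.86 and 1.61 (B6), 0.889 and 1.02 (NZO), 1.27 and 1.38 (PWK) and 1.73 and 1.69 (WSB). NOD was thus above and CAST below all other samples, with log2 contrasts of 1.94 ± 0.18 (adjusted p = 0.00015) and -2.20 ± 0.18 (adjusted p = 4.53e-06). At Zfp991 (147131467 to 147135399) NOD was again high, with 3.01 and 3.32, against 0.632 (CAST male) to 1.5 (WSB male) in the other samples. Its NOD contrast was 1.61 ± 0.17 (adjusted p = 0.00043). Zfp978 and Zfp979 were lowest in CAST (0.144 and 0.180 as means of the female and the male), and Zfp933 was lowest in PWK (1.21). Words around the summits of Zfp991, Zfp978 and Zfp979 are repeated to 100%, those of Zfp984 to 63.5% and those of Zfp933 to 0.369%.

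**Figure D3:**
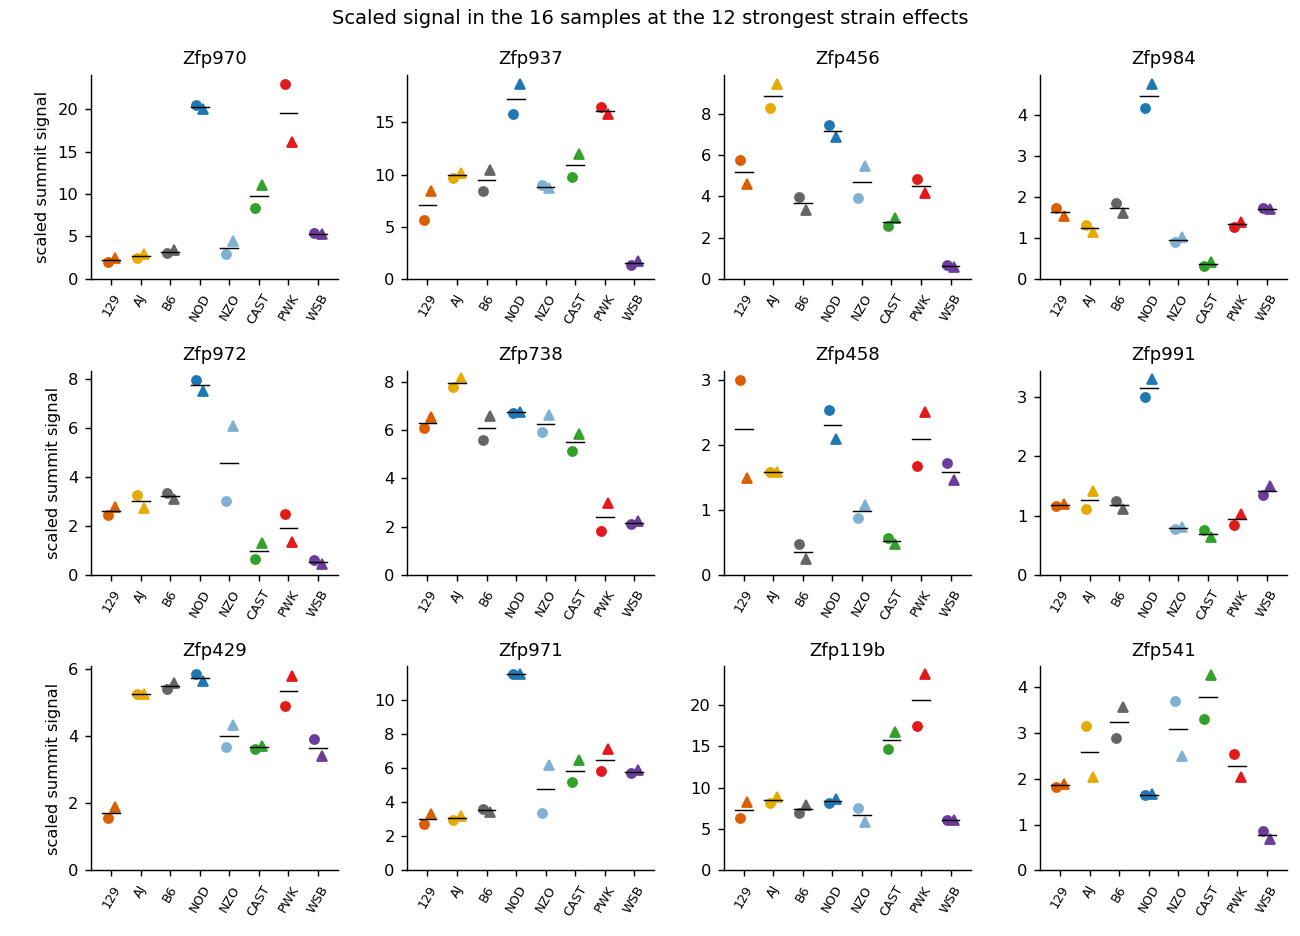
Scaled summit signal (vertical axis, no unit, from 0) at the 12 Zfp promoter regions with the smallest adjusted p for strain, by strain, with circles for the female, triangles for the male and a line at their mean. NOD stands apart upward at Zfp984, Zfp972, Zfp991 and Zfp971, and WSB downward at Zfp937, Zfp456 and Zfp541.

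Outside these clusters, Zfp119b on chromosome 17 (55944114 to 55946128, adjusted p = 0.00124) was high in CAST and PWK. It had 14.8 and 16.8 in the CAST female and male and 17.5 and 23.8 in PWK, against 5.82 (NZO male) to 8.91 (AJ male) in the other samples, WSB included. This call was lost with the deposited mean signal in place of the summit signal (adjusted p = 0.161), and 53.9% of the words at its summit are repeated. Zfp541, a gene of meiosis, had 0.868 and 0.693 in WSB, and 1.65 (NOD female) to 4.27 (CAST male) elsewhere. Its WSB contrast was -1.68 ± 0.21 (adjusted p = 0.000594).

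Contrasts of 1 strain with the mean of the other 7 gave 106 calls, 39 higher and 67 lower. All contrasts share the same samples, and a region can be called in several, so the calls are not separate strain differences. Zfp970 alone was called higher in NOD, CAST and PWK and lower in 129, AJ, B6 and NZO. NOD was higher at 11 Zfp regions, a share of 3.42% where 1.64% of all regions were called, and lower at 3 (background 1.32%). The 11 were Zfp970, Zfp972, Zfp984, Zfp991, Zfp971, Zfp937, Zfp458, Zfp456, Zfp804b, Zfp773 and Zfp800, and at 7 of them over 10% of the words at the summit are repeated. Of other promoter regions NOD was higher at 1.33% and lower at 0.590%. The 3 lower regions were Zfp27 (-1.24 ± 0.22, adjusted p = 0.00978), Zfp385a (-1.19 ± 0.24, adjusted p = 0.0188) and a second region of Zfp568. The calls at Zfp27 and Zfp385a were lost without centring and without either NOD sample.

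WSB was lower at 10 regions (3.11%, background 3.08%, other promoter regions 1.82%) and higher at 0 (background 2.56%, other promoter regions 0.638%). In limma, 7 were higher at an unadjusted p-value under 0.05. With centring on protein-coding promoter regions WSB had 1 higher and 6 lower, and without centring 2 higher and 3 lower. CAST was lower at 23 (7.14%, background 13.4%, other promoter regions 7.28%) and higher at 11 (3.42%, background 6.79%, other promoter regions 4.40%). This split turned with the scaling, since without centring CAST had 196 higher and 1 lower, and with centring on protein-coding promoter regions 4 higher and 22 lower. Besides Zfp984, the larger CAST change downward was at Zfp772 on chromosome 7 (7209145 to 7210929), with 2.64 and 3.53 in the CAST female and male against 6.53 (PWK male) to 13.0 (AJ male). Its contrast was -1.53 ± 0.20 (adjusted p = 0.000157), and 0.0758 without centring. Words at the Zfp772 summit are repeated to 88.9%. Upward, CAST led at Zfp473, which is known from histone mRNA processing, at a second region (44744965 to 44745735) with 4.25 and 4.15 against 1.11 (AJ female) to 2.66 (NZO male).

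PWK was higher at 8 regions (2.48%, background 5.16%, other promoter regions 2.53%) and lower at 9 (2.80%, background 5.69%, other promoter regions 3.00%). Without centring, however, 2 were higher and 229 lower. After Zfp970 the highest fold was at Zfp521 on chromosome 18 (13972271 to 13973270), a factor that restrains differentiation of several lineages. PWK had 2.89 and 3.69 there, and the other samples 0.444 (NZO female) to 1.41 (129 female), with a contrast of 1.86 ± 0.28 (adjusted p = 0.000952). Downward, Zfp820 in the chromosome 17 cluster (21845066 to 21847199) had 0.694 and 0.594 in PWK and 0.915 (WSB female) to 2.61 (B6 male) in the others. Its contrast was -1.39 ± 0.18 (adjusted p = 0.000357). Zfp945 followed with -1.30 ± 0.19 (adjusted p = 0.000784).

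AJ was higher at 6 regions (1.86%, background 3.58%, other promoter regions 1.65%) and lower at 12 (3.73%, background 3.01%, other promoter regions 3.64%). The AJ signal at Zfp91, a ubiquitin ligase gene whose promoter is shared with Lpxn, was 15.1 and 19.9, against 5.89 (B6 female) to 14.99 (NOD male). AJ and NOD did not overlap there, by a margin smaller than the spread within AJ. AJ was lowest at Zfp287 (-1.46 ± 0.30, adjusted p = 0.0169) and Zfp12 (-1.36 ± 0.29, adjusted p = 0.0203). Calls at Zfp456, Zfp91, Zfp287 and Zfp12 were lost without either AJ sample and with the mean signal, with adjusted p up to 0.242. With centring on protein-coding promoter regions AJ had 8 higher and 6 lower calls, so its balance turned, and without centring it had 1 higher and 47 lower.

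B6 was higher at 0 regions (background 1.37%, other promoter regions 0.305%, 19 at an unadjusted p-value under 0.05). It was lower at 4 (1.24%, background 1.59%, other promoter regions 2.17%). The 4 were Zfp458, Zfp518a (-1.15 ± 0.27, adjusted p = 0.0368), Zfp950 and Zfp970. The strain 129 was higher at 0 (background 0.957%, other promoter regions 0.847%, 46 at an unadjusted p-value under 0.05). It was lower at 3 (0.932%, background 2.01%, other promoter regions 0.704%), namely Zfp970, Zfp429 and Zfp971. NZO was higher at 3 (0.932%, background 2.22%) and lower at 3 (0.932%, background 2.83%). The higher ones were Zfp385a (1.07 ± 0.24, adjusted p = 0.026), Zfp740 (1.06 ± 0.28, adjusted p = 0.0475) and the second region of Zfp568. The lower ones were the promoter shared by Zfp935 and Zfp934 (-1.04 ± 0.18, adjusted p = 0.00953), Zfp970 (-0.81 ± 0.20, adjusted p = 0.0412) and Zfp991. At Zfp970 the contrasts of B6, 129 and NZO are against a mean that includes the high values of NOD, PWK and CAST. By the values given above, NZO overlapped AJ and B6 there and lay above 129. Of the NZO calls given with values, each was lost without the NZO male and without centring. The calls at Zfp518a in B6, and at Zfp740 and Zfp970 in NZO, were also lost in most other alternatives.

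No Zfp region was called for strain class, wild-derived against classical on the 8 strain means, where 4 were higher and 21 lower at an unadjusted p-value under 0.05 in limma. Of all regions 0.033% were called. For sex 0 were called, with 0 higher and 1 lower in females at an unadjusted p-value under 0.05, and 0.00943% of all regions were called.

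Strain calls moved with repeated sequence. Among the 322 regions, 52 had over 10% of the 31-base words within 301 bases around the summit at more than 1 place in the reference, and 22 of the 52 (42.3%) had a strain effect. Of the 251 regions without a repeated word, 41 (16.3%) had one. The same shares were 43.7% and 21.1% at promoters of other protein-coding genes, and 51.2% and 33.6% over all regions. Repeated words over 10% were found at 16.1% of the Zfp regions, 4.27% of other promoter regions and 6.68% of all regions. The part of read placement, of differences in copy number and of differences in sequence from the B6 reference in these calls was not tested.

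**Figure D4:**
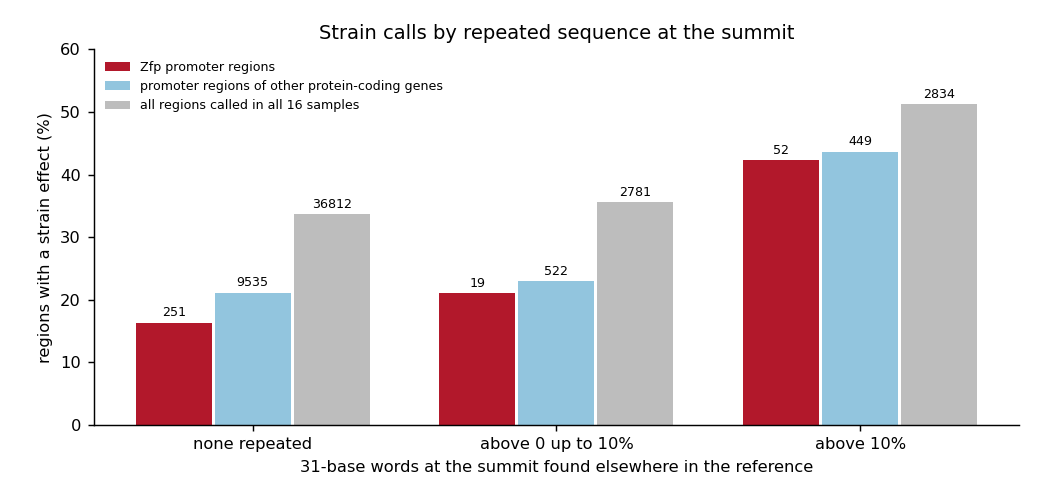
Share of regions with a strain effect (%, vertical axis) by the share of 31-base words at the summit that occur more than once in the reference, for Zfp promoter regions, promoter regions of other protein-coding genes and all regions. The number over each bar counts its regions, and the Zfp bars are 16.3%, 21.1% and 42.3%.

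Of 6 Zfp genes known as silencers of retroelements or imprinted genes, all 6 were called in all 16 samples. A strain effect was called at 22.2% of other promoter regions, at 34.9% of all regions and at 1 of these 6. That was Zfp932 (109996040 to 109997386, adjusted p = 0.00252), with 2.54 and 2.13 in the CAST female and male and 2.1 and 1.69 in PWK, against 3.14 (129 female) to 6.37 (B6 male). Its summit lies in repeated words to 63.8%. Zfp809, which silences murine leukemia proviruses, had 2.66 to 4.38 over the 16 samples with a median of 3.31 (adjusted p = 0.422). Zfp57 and Zfp445, which protect imprints, were weak, with medians of 0.604 and 0.587. Zfp708 had a median of 6.74 and Zfp568, which represses a promoter of Igf2, one of 3.04 at its leading region.

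Of 9 factors of development without KRAB, 7 were called in all 16 samples. While 22.2% of other promoter regions and 34.9% of all regions had a strain effect, 3 of the 7 had one. Besides Zfp521 these were Zfp503 (adjusted p = 0.00963), highest in 129 (mean 1.61) and lowest in B6 (0.568), and Zfp516 (adjusted p = 0.0109), a regulator of brown fat genes, highest in PWK (9.91) and lowest in WSB (3.997), with 59.0% of the words at its summit repeated. Zfp42 (Rex1), a marker of pluripotent cells, had a peak in 9 samples, with a highest scaled signal of 0.328. Zfp462, Zfp536, Zfp703 and Zfp704 were called in all samples without a strain call, with medians of 0.888 (Zfp536) to 4.02 (Zfp703).

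Of 11 broadly used factors without KRAB, 9 were called in all 16 samples and 2 had a strain effect, Zfp91 and Zfp326 (adjusted p = 0.0359). The share with such an effect was 22.2% of other promoter regions and 34.9% of all regions. Zfp622, a factor of ribosome assembly, had a median of 11.8 and Zfp143, a factor bound at many promoters, one of 5.71. Zfp281, Zfp384 and Zfp638 had medians of 4.43, 3.55 and 2.19, and Zfp106 and Zfp207 were weak, with 0.439 and 0.4797. Zfp335 had a peak in 15 samples and Zfp217 in 14. Of the 3 CCCH genes, whose proteins speed the decay of mRNA, Zfp36 and Zfp36l2 were called in all samples (medians 3.08 and 2.02), and Zfp36l1 in 2.

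The partners through which KRAB proteins act were read from a list of 19 genes. Their promoters were called in all 16 samples for 16, of which 4 had a strain effect. Of other promoter regions 22.2% had one, and of all regions 34.9%, so the 4 are given as a description. The corepressor Trim28 itself had 3.604 to 5.28 over the samples, with a median of 4.20 (adjusted p = 0.935). Setdb1 was weaker, from 0.354 to 1.35, and highest in NZO (mean 1.09, adjusted p = 0.0261). The further calls were Cbx5 (adjusted p = 0.0137, highest in NZO), Cbx3 (0.0485, highest in 129) and Ehmt1 (0.0191, highest in 129), which encode heterochromatin proteins and a histone methyltransferase. Over promoter regions of other genes, the 129 female and the NZO male also had the highest median scaled signals (2.59 and 2.58). Without a call, 129 was also highest at Trim28, Atf7ip, Suv39h2, Morc2a, Fam208a, Dnmt1, Uhrf1 and Chd4. How far such an offset over promoters entered the 4 calls was not tested. Cbx1, Chd3 and Ehmt2 had peaks in 14, 12 and 12 samples. The other 11 promoters did not pass, among them those of Atf7ip, Morc2a, Fam208a, Mphosph8, Pphln1, Suv39h2, Dnmt1, Uhrf1 and Hdac1, and their medians ran from 0.907 (Chd4, a chromatin remodeller) to 6.57 (Hdac2, a histone deacetylase).

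Clusters differed in level and in completeness. The chromosome 17 cluster from Zfp677 to Zfp943 had 13 of 13 genes called in all 16 samples, a median scaled signal of 5.7 and 3 strain effects, while the chromosome 11 cluster from Zfp354c to Zfp354a had 6 of 6 called, a median of 0.931 and 0 strain effects. Such effects were called at 22.2% of other promoter regions and 34.9% of all regions. The chromosome 7 cluster from Zfp553 to Zfp629 had 2 of 8 genes called in all samples (Zfp747 and Zfp689) and a median of 0.493. Its other 6 genes had peaks in 6 (Zfp629) to 15 samples (Zfp688). In 11 of the 20 clusters every gene was called in all 16 samples.

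**Figure D5:**
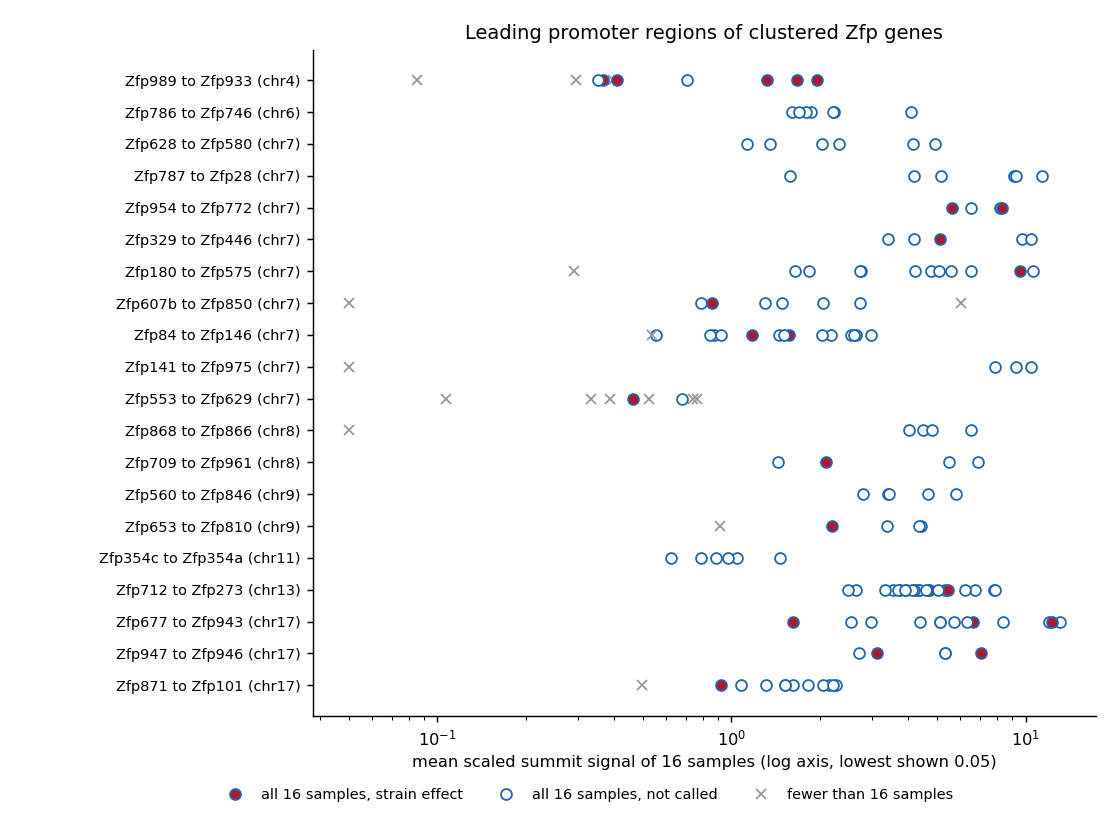
Mean scaled summit signal of the leading promoter region of each Zfp gene (horizontal log axis, values under 0.05 drawn at 0.05) in the 20 clusters (rows). Filled circles had a strain effect, open circles did not pass, and crosses had a peak in fewer than 16 samples, as most genes of the Zfp553 to Zfp629 cluster did.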

How the data were processed

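Per the labels and the study's methods, 50 islets per sample were used for ATAC-seq. The authors trimmed reads (cutadapt 2.0), aligned them to mm10 (Bowtie2 2.3.4.1), removed duplicates (Picard 2.9.2) and called the peaks of each sample in MOSAiCS (FDR 0.05). No Tn5 shift was stated. The deposited summit signal and mean signal are whole-number read coverage, not scaled for depth, and the deposited −log10 p-value served only to rank peaks in an alternative.

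Regions, scaled signal and promoters (GENCODE genes, 1 kb) were built as described above. limma 3.58.1 (R 4.3.3) was fitted to log2(signal + 1) of 42427 regions, and p-values were adjusted (Benjamini-Hochberg) over all of them. It was tested on simulated data. Contrasts set 1 strain against the mean of the other 7. Named were the 12 regions with the smallest adjusted p for strain, up to 2 called regions per strain and direction with the largest fold, the 12 strongest regions present or absent by strain, the genes without a peak, the 5 highest and lowest means, and genes of the lists. Others were named after their values were seen. Members and lists were chosen with earlier results of these data known. Repeated 31-base words were counted in the RefSeq GRCm38.p6 chromosomes.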

Additional observations from a re-analysis of the deposited data

Results flagged for a closer look

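In 30 tests of the 8 females or the 8 males, the highest and lowest value were set against the other 7 by Dixon's criterion. Tested were the 12 regions with the smallest adjusted p for strain and some quantities of whole samples. The latter were the number of Zfp genes with a peak, the median scaled Zfp signal and its ratio to that of other promoter regions. A value stood apart in 7 tests, all of them at regions. Chance meets the criterion in about 1 in 20 groups. The regions were named for their differences among strains, so that rate is no yardstick for them and the 7 values are a description. The NOD female stood apart at 4 regions and the NOD male at 3. Among females, NOD had a scaled signal of 4.16 at Zfp984 (next highest 1.86), 7.96 at Zfp972 (3.32), 3.01 at Zfp991 (1.34) and 11.52 at Zfp971 (5.84). Among males, NOD had 4.74 at Zfp984 (1.69), 3.32 at Zfp991 (1.5) and 11.54 at Zfp971 (7.12). At these 4 regions over 10% of the 31-base words at the summit are repeated in the reference, and the part of read placement was not tested.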

How the results depend on the processing

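The 67 strain effects became 211 without centring and 41 of 251 regions when regions with a repeated 31-base word at the summit were left out, an alternative chosen after seeing the data. They ranged from 34 to 148 over single samples left out and from 31 (without CAST) to 110 (without NZO) over strains. The 106 one-strain calls became 490 without centring and 52 without repeated words, with 57 to 288 over samples and 48 to 204 over strains. Without the CAST female or male 57 were called, without the NOD female 70, without the WSB male 63, and without the NZO female and male 288 and 197. Where a sample was left out, the lone sample of its strain was assumed to vary like the others. The calls for strain class numbered 1 without centring, 1 with the mean signal and 1 without WSB. Sex gave 0 in every alternative. The 308 genes called in all 16 samples ranged from 263 (the part of each list with higher −log10 p) to 313 (3 kb window), and up to 323 without AJ. The other alternatives gave 49 to 87 strain effects. No single named call changed its direction, but the balance of higher and lower calls did in AJ and CAST with the scaling. Of the 12 regions with the smallest adjusted p, 11 kept their strain effect in every alternative that tested them, and Zfp119b lost it with the mean signal. Of all one-strain calls 36.8% were higher, 35.5% with centring on promoters and 42.2% without centring. Centring on promoters moved the median of all regions to 0.27 in AJ and -0.20 in 129 and NZO, and leaving centring out moved it to 0.76 in CAST and -0.80 in PWK (log2). Read depth per sample was unknown, so how far it set which weak peaks were listed cannot be told apart from strain.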
